A study of Mus musculus with 9 samples.

Results

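The RNA levels of 10 genes that encode elastin, the microfibril proteins and the fibulins were followed in muscle cells on 9 single-colour Agilent arrays. The genes were taken by their symbol on the array: Eln, Fbn1, Fbn2, Mfap2, Mfap4, Mfap5, Fbln1, Fbln2, Fbln5 and Efemp1. They are 10 of the 22705 genes tested and are read by 14 of the 41174 probes. Fbn1, Mfap2, Fbln1 and Fbln5 have 2 probes each and the other 6 genes have 1.

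The iPax3 and iPax7 groups, 3 arrays each, held myogenic progenitors made from pluripotent stem cells that had been transplanted into muscle and taken out again as mononucleated cells. The labels give their strain as NSG/NSGmdx4cv, without saying which arrays came from NSG mice and which from NSGmdx4cv mice. The comparison group had 3 arrays of satellite cells of the strain Pax7-ZsGreen. Satellite cells are the stem cells that lie beside the fibres of adult muscle. All groups came from the tibialis anterior of mice aged 3 months. For each, 1500 cells were sorted from 3 mice per line in 3 independent experiments, and the RNA was amplified with the SuperAmp kit. The labels give neither the gate of the sort nor the way the cells of the 3 mice were divided among arrays. The spread that enters the p-values is that between these arrays. The study set the re-isolated cells against adult satellite cells to ask how far transplanted progenitors come to resemble them.

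Elastic fibres give tissues their recoil. A core of cross-linked elastin is laid down on a scaffold of microfibrils, which are built from fibrillins and carry the microfibril-associated glycoproteins along their length. Fibulins join elastin, microfibrils and neighbouring matrix proteins, and lysyl oxidases cross-link elastin. In skeletal muscle these proteins belong to the connective tissue around the fibres, which is made mostly by fibroblasts and fibro-adipogenic progenitors, and microfibrils also hold latent TGF-beta in the matrix.

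Fbn1, which encodes the main fibrillin of adult microfibrils, and Efemp1, which encodes the fibulin-like glycoprotein also called fibulin-3, rose in iPax7 cells relative to satellite cells, 56.2-fold and 128-fold. When the arrays of both lines were set together against satellite cells, Mfap5, which encodes a microfibril-associated glycoprotein, rose as well, by 38.2-fold. The probes of Efemp1 and Mfap5 were each not well above background on 1 satellite array. Normexp background correction was run with an offset of 50 added to each signal, which by itself narrows differences between dim signals. It brought Efemp1 in iPax7 cells from 7 to 4.26 log2 units and Mfap5 with both lines from 5.26 to 2.68. In iPax3 cells alone, 0 of the 10 genes passed the test, where 0.432% of all genes did in either direction. The mean was higher there for 9 of the 10, against 45.3% of all genes. Fbn1 was 29.8-fold above satellite cells in iPax3 cells, with an adjusted p of 0.0713 (limma, Benjamini-Hochberg over all genes tested). Fbn2, the fibrillin best known from development, was the member whose means lay closest together across the 3 groups. All calls among the 10 genes were lost when slide or scan day entered the fit as a random block, and they depended on single arrays, as given beside each gene.

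Between 56.6% (iPax7 replicate 1) and 79.7% (satellite replicate 1) of the probes of an array were well above background. Satellite replicates 2 and 3 stood at 57% and 60.4%, and the remaining arrays at 68.4% or above. Arrays of the same group correlated with each other at r between 0.62 and 0.744 over all genes. The iPax3 arrays and iPax7 replicate 1 lay on 1 slide, the other 2 iPax7 arrays on another, and each satellite array on a slide of its own. All re-isolated arrays were scanned on the same day and the satellite arrays on 2 other days, so strain, slide and scan day cannot be told apart from the difference between re-isolated and satellite cells. Among 12 satellite cell markers, Chrdl2 fell by 9.2 on the log2 scale in iPax3 cells and fell by 9.04 in iPax7 cells, and Heyl and Fgfr4 fell as well with both lines together. Myf5, a myogenic determination factor, was well above background on none of the re-isolated arrays. In the satellite group, Pax7, which marks these cells, stood at 2.89, 3.53 and −0.66 in replicates 1 to 3.

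Levels are log2 signals relative to the 75th percentile of the same array, so that a level of 0 is that of a probe at this percentile. Array values are listed in the order of replicates 1, 2 and 3. The level of a probe can be compared between arrays but not with that of another probe.

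**Figure D1:**
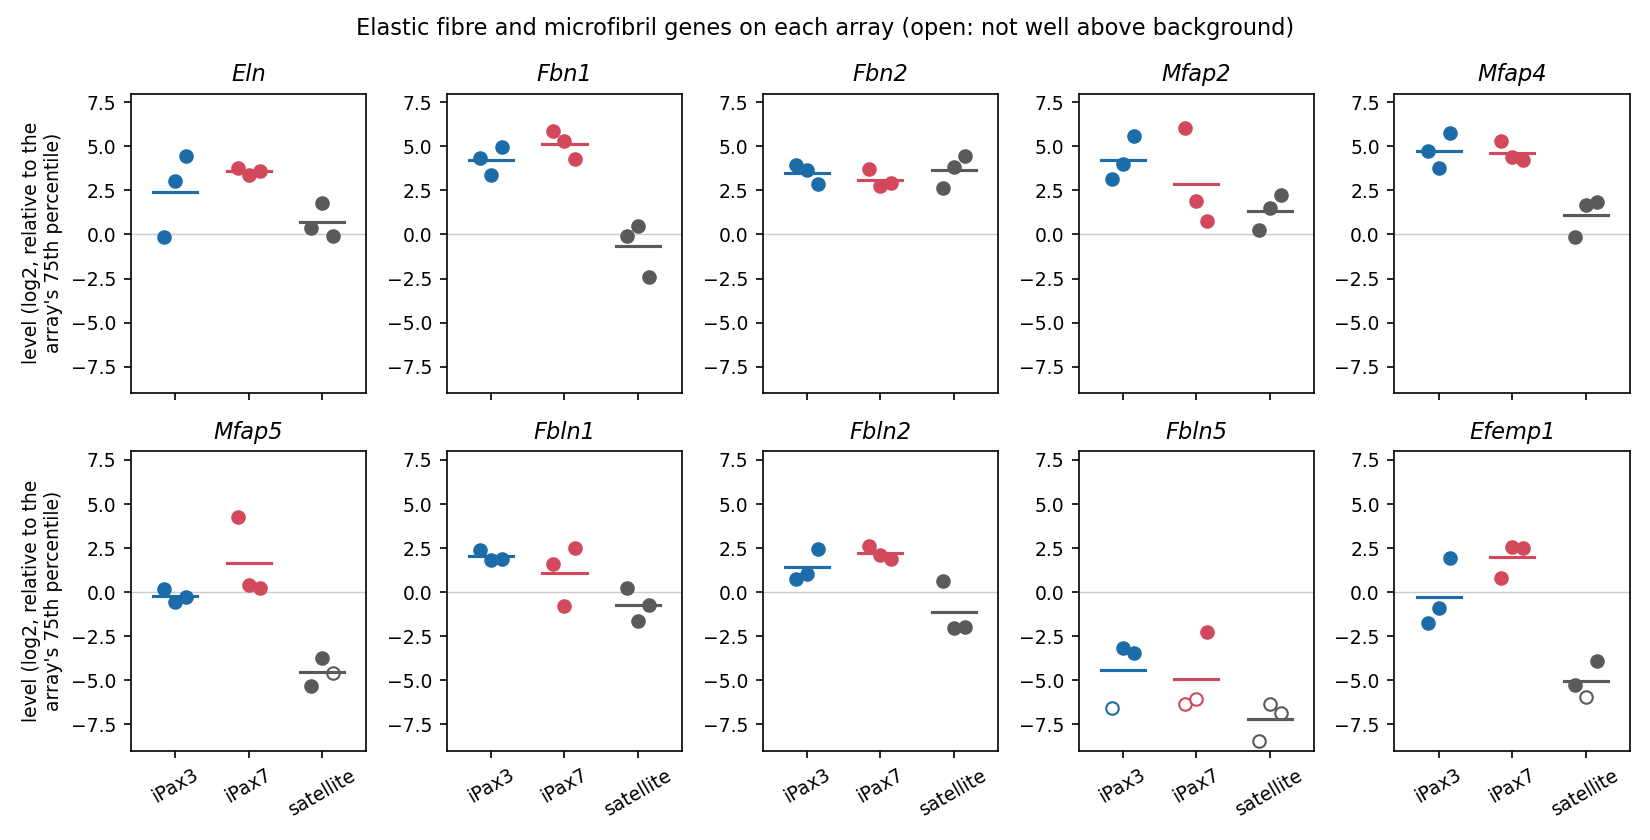
Level of each of the 10 genes on each of the 9 arrays, as log2 signal relative to the array's 75th percentile. Points are arrays, bars are group means, and open points are arrays on which the probe was not well above background; for Fbn1 all iPax3 and iPax7 points lie above all satellite points, while for Fbn2 the 3 groups overlap.

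Eln encodes elastin itself. Its probe lies at chr5:134987886-134987945 of mouse build mm8, on the minus strand. Its level was −0.14, 3.01 and 4.44 on the iPax3 arrays. The iPax7 arrays gave 3.79, 3.35 and 3.61, and the satellite arrays 0.36, 1.77 and −0.06. The iPax7 arrays lay close together and above all satellite arrays, whereas iPax3 replicate 1 was slightly below all satellite arrays and the other 2 iPax3 arrays were above them. Its mean was 3.58 ± 0.22 in iPax7, 2.44 ± 2.34 in iPax3 and 0.69 ± 0.96 in satellite cells (SD, n = 3). Eln did not pass in iPax7 cells (2.89 ± 1.13 log2 units, SE of the fit, adjusted p = 0.353, limma) or in iPax3 cells (1.75 ± 1.13, adjusted p = 0.536).

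Fbn1 encodes fibrillin-1, the main building block of microfibrils. The probe that stands for it, the brighter of its 2, lies at chr2:124992959-124993018 of mm8 on the minus strand. Its level was 4.35, 3.39 and 4.99 in iPax3 cells, and 5.9, 5.28 and 4.28 in iPax7 cells. The satellite arrays gave −0.08, 0.51 and −2.41. Every re-isolated array was therefore above every satellite array, the nearest pair being iPax3 replicate 2 and satellite replicate 2. Relative to satellite cells, Fbn1 was higher by 5.81 ± 0.93 log2 units in iPax7 cells (adjusted p = 0.0348, limma, 95% confidence interval 3.71 to 7.91), a rise of 56.2-fold. In iPax3 cells the difference was 4.9 ± 0.93 with an interval of 2.8 to 7, and it did not pass (adjusted p = 0.0713). Both lines together were 5.36 ± 0.81 above satellite cells, which passed (adjusted p = 0.0201).

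The second Fbn1 probe, at chr2:124992432-124992491, also had every re-isolated array above every satellite array. The iPax3 arrays gave 3.65, 2.32 and 4.03, the iPax7 arrays 4.36, 4.7 and 4.33, and the satellite arrays 0.41, −0.91 and −3.93. On this probe every iPax7 array was also above every iPax3 array, which was not so on the first. When each probe was fitted by itself, the difference of the second probe was 5.94 ± 1.11 in iPax7 cells (adjusted p = 0.0695) and that of the first passed (adjusted p = 0.0445). For both lines together the second probe passed too (5.37 ± 0.96, adjusted p = 0.0447). The call of Fbn1 in iPax7 cells held in 9 of 14 alternative settings. With single arrays left out it held in 1 of 9 fits, that without satellite replicate 1, and the adjusted p lay between 0.0319 and 0.123 over the 9. The call with both lines together was lost without iPax3 replicate 1 or 3, iPax7 replicate 2 or satellite replicate 3.

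Fbn2 encodes fibrillin-2, a fibrillin prominent in developing tissue. It read 3.92, 3.68 and 2.85 on the iPax3 arrays, 3.69, 2.74 and 2.9 on the iPax7 arrays, and 2.66, 3.82 and 4.48 on the satellite arrays. The 3 groups overlapped, with the highest and the lowest value both in satellite cells. The difference from satellite cells was −0.17 ± 0.73 in iPax3 cells (adjusted p = 0.938, interval −1.83 to 1.48) and −0.54 ± 0.73 in iPax7 cells (adjusted p = 0.793, interval −2.2 to 1.11). The sign in iPax3 cells turned under quantile normalization, under normexp background correction and in the deposited table. These intervals leave room for differences of more than 2-fold either way in each line.

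**Figure D2:**
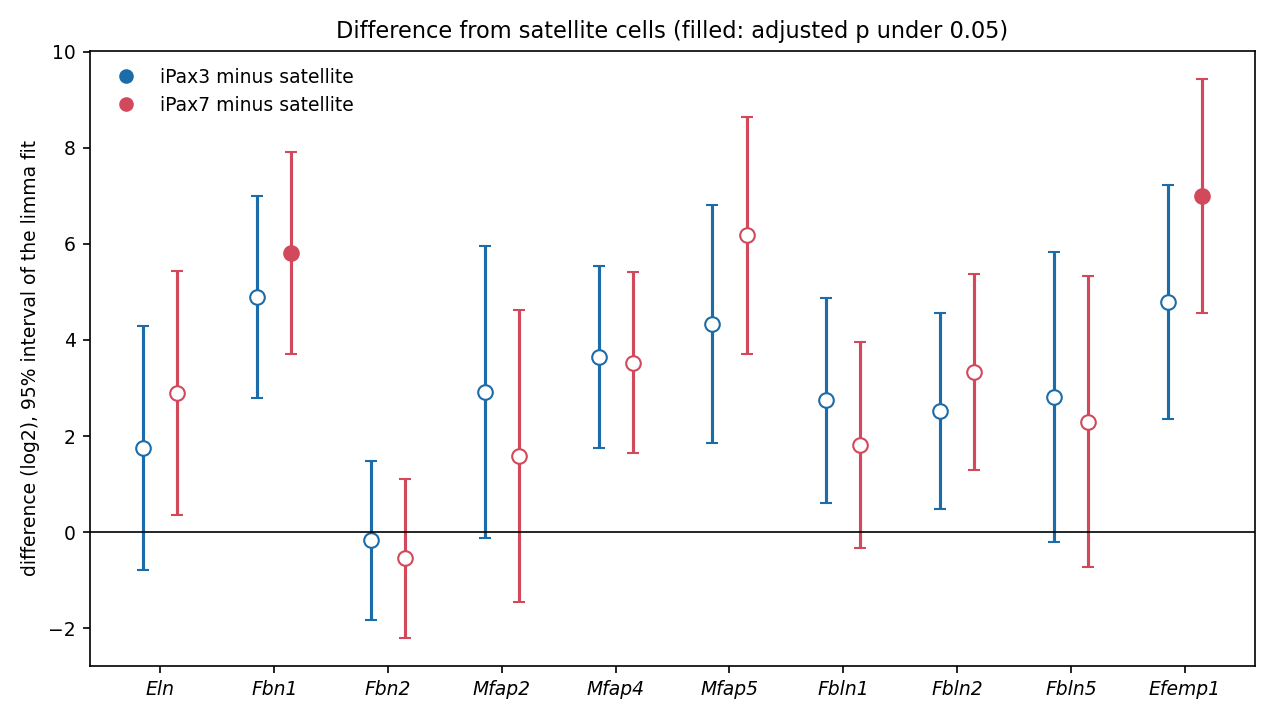
Difference of each gene from satellite cells in iPax3 and in iPax7 cells, in log2 units with 95% confidence intervals of the limma fit. Filled points, Fbn1 and Efemp1 in iPax7 cells, passed an adjusted p of 0.05, and Fbn2 is the 1 gene on the lower side in both lines.

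Mfap2 encodes a microfibril-associated glycoprotein (MAGP) that binds fibrillin. On the probe that stands for it, the iPax3 arrays gave 3.13, 3.99 and 5.59, the iPax7 arrays 6.02, 1.89 and 0.77, and the satellite arrays 0.23, 1.48 and 2.25. The iPax3 arrays were all above the satellite arrays, while in iPax7 cells replicate 1 was the highest of the 9 arrays and the other 2 lay among the satellite arrays. Neither difference passed: 2.92 ± 1.35 log2 units in iPax3 cells (adjusted p = 0.419, limma) and 1.58 ± 1.35 in iPax7 cells (adjusted p = 0.67).

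The second Mfap2 probe did not follow the first. It read −0.5, 0.17 and 2.11 for iPax3, 0.26, −1.05 and −0.2 for iPax7, and −0.39, 0.5 and 1.09 for satellite cells, and all 3 groups overlapped. Fitted by itself, it gave differences of 0.2 ± 0.9 in iPax3 cells and −0.73 ± 0.9 in iPax7 cells, so that the sign in iPax7 cells depended on the probe. Both probes match the same deposited accession and read different stretches of it, the first starting at its base 210 and the second at its base 928. The first 30 of their 60 bases are shown because the probes differed in sign in iPax7 cells, and G and C make up 55% of the first probe and 45% of the second.

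Mfap2, first probe: agtgagtcctcggacccctgaagagcagtt
Mfap2, second probe: gtctgcttggatttcctacgccccaggcat

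**Figure D3:**
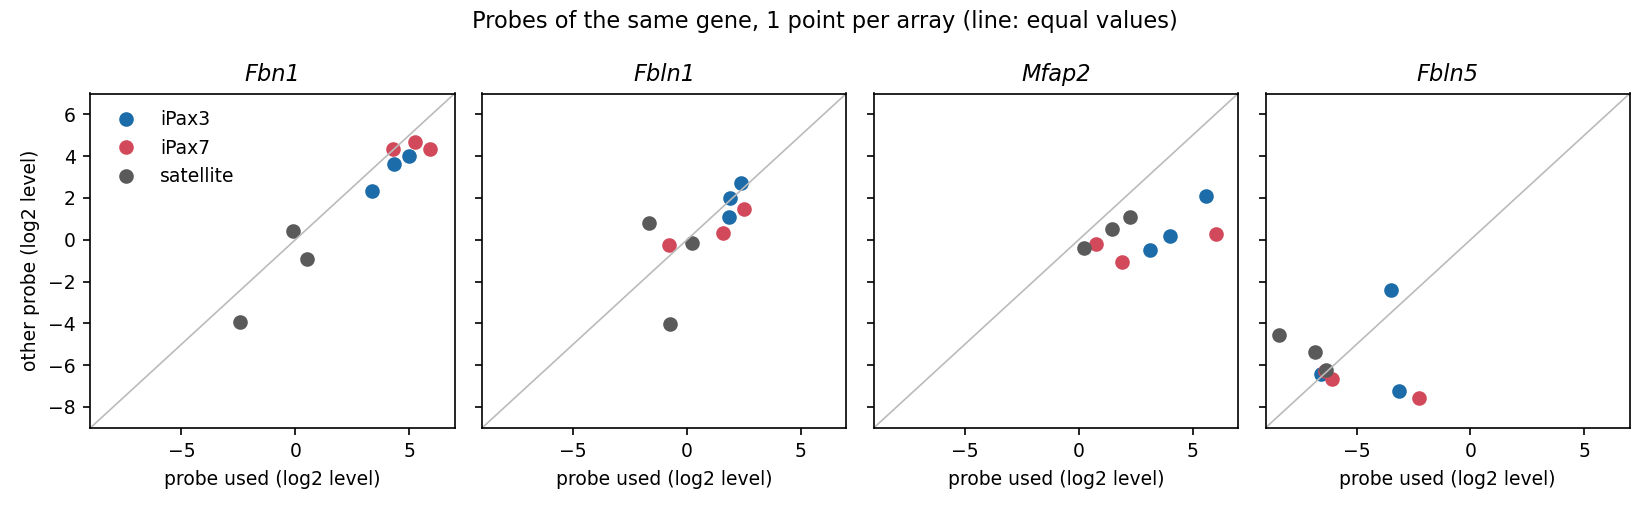
Levels of the 2 probes of Fbn1, Fbln1, Mfap2 and Fbln5 on the 9 arrays, the probe that stands for the gene on the horizontal axis and the other on the vertical axis, both as log2 signal relative to the array's 75th percentile, with a line at equal values. The Fbn1 probes order the re-isolated above the satellite arrays alike, and the Mfap2 arrays with the highest values of the first probe are not all those with the highest values of the second.

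Mfap4 encodes a glycoprotein that binds elastin, collagen and fibrillin. The iPax3 arrays gave 4.71, 3.77 and 5.78, the iPax7 arrays 5.3, 4.4 and 4.23, and the satellite arrays −0.15, 1.66 and 1.82. All 6 re-isolated arrays were above all 3 satellite arrays, and the means of both lines were nearly alike at 4.75 ± 1.01 and 4.64 ± 0.58 (SD, n = 3). The differences from satellite cells were 12.5-fold in iPax3 cells (adjusted p = 0.124, limma) and 11.6-fold in iPax7 cells (adjusted p = 0.136), and the 12-fold difference of both lines together did not pass either (3.59 ± 0.73, adjusted p = 0.061).

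Mfap5 encodes MAGP2, the second microfibril-associated glycoprotein that binds fibrillin. Its level was 0.2, −0.56 and −0.26 in iPax3 cells and 4.28, 0.39 and 0.23 in iPax7 cells. The satellite arrays gave −5.3, −3.75 and −4.59, and on replicate 3 the probe was not well above background. The groups did not overlap in any pair, and iPax7 replicate 1 stood far above the other 2 iPax7 arrays. Mfap5 was higher than in satellite cells by 6.18 ± 1.1 in iPax7 cells (adjusted p = 0.052, limma) and by 4.34 ± 1.1 in iPax3 cells (adjusted p = 0.154), neither of which passed. Both lines together were 5.26 ± 0.95 higher, which passed (adjusted p = 0.0416). Without iPax7 replicate 1 the difference in iPax7 cells was 4.85, and that in iPax3 cells passed (adjusted p = 0.0475). That was also the 1 array whose removal left the call with both lines together in place (4.59, adjusted p = 0.0215), and normexp background correction ended it (2.68, adjusted p = 0.204).

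Fbln1 and Fbln2 encode fibulins that bind fibronectin, basement membrane proteins and, in elastic fibres, the elastin core or the microfibrils around it. Fbln1 read 2.37, 1.83 and 1.89 on the iPax3 arrays, 1.59, −0.8 and 2.51 on the iPax7 arrays, and 0.24, −1.65 and −0.73 on the satellite arrays. The iPax3 arrays lay close together above the satellite arrays, and iPax7 replicate 2 fell among them. The differences of Fbln1 were 2.74 ± 0.95 log2 units in iPax3 cells (adjusted p = 0.299, limma) and 1.81 ± 0.95 in iPax7 cells (adjusted p = 0.481). Its second probe differed by 3.05 ± 1.25 and 1.65 ± 1.25.

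Fbln2 read 0.76, 1.03 and 2.45 on the iPax3 arrays, 2.64, 2.1 and 1.9 on the iPax7 arrays, and 0.66, −2.04 and −1.97 on the satellite arrays. Satellite replicate 1 came close to the lowest iPax3 array and the other 2 satellite arrays lay well below it. The differences were 2.53 ± 0.91 log2 units in iPax3 cells (adjusted p = 0.309, limma) and 3.33 ± 0.91 in iPax7 cells (adjusted p = 0.188). Without satellite replicate 1 the difference in iPax7 cells was 4.22 and passed (adjusted p = 0.0339).

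Fbln5 encodes a fibulin that brings elastin onto microfibrils. Its probe was well above background on iPax3 replicates 2 and 3 and on iPax7 replicate 3, and on no satellite array, so the satellite level is only a bound. The iPax3 arrays gave −6.58, −3.15 and −3.47, the iPax7 arrays −6.37, −6.08 and −2.25, and the satellite arrays −8.43, −6.35 and −6.83. The groups overlapped. With the satellite level taken at this bound, Fbln5 was 1.72-fold higher in iPax3 cells and 1.22-fold higher in iPax7 cells. For this, each satellite array was first lifted to its own detection limit, which is the dimmest signal passing the background flag there. The iPax3 and iPax7 arrays kept their measured values, also where the probe was not well above background, so these folds are not strict minima. The iPax7 fold rests on replicate 3, without which the measured difference was 0.98 in place of 2.3 log2 units. With normexp background correction and its offset of 50, the differences were 0.11 log2 units in iPax3 and 0.18 in iPax7 cells, less than either fold. The fit gave adjusted p-values of 0.427 and 0.518 (limma), with intervals of −0.21 to 5.83 and −0.72 to 5.33. The second Fbln5 probe was well above background on 2 arrays, iPax3 replicate 3 and satellite replicate 1, and was not tested.

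Efemp1 encodes fibulin-3, a short fibulin of the extracellular matrix. Its probe lies at chr11:28826538-28826597 of mm8. Its level was −1.74, −0.92 and 1.91 in iPax3 cells and 0.8, 2.59 and 2.51 in iPax7 cells. The satellite arrays gave −5.25, −5.96 and −3.91, with replicate 2 not well above background. All satellite arrays were below all re-isolated arrays, and iPax3 replicate 3 was the 1 iPax3 array in the range of the iPax7 arrays. Efemp1 rose by 7 ± 1.08 log2 units in iPax7 cells (adjusted p = 0.0294, limma, interval 4.57 to 9.44), or 128-fold. In iPax3 cells the difference was 4.79 ± 1.08 (adjusted p = 0.116), and for both lines together it was 5.9 ± 0.94 and passed (adjusted p = 0.0251). Normexp background correction brought the difference in iPax7 cells to 4.26 (adjusted p = 0.0732). That call held without iPax3 replicate 1 or 3 or without satellite replicate 1 and was lost without any other array, the adjusted p running from 0.0223 to 0.121. The call with both lines together was lost without iPax3 replicate 2, iPax7 replicate 2 or 3, or satellite replicate 2 or 3.

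The sequence before the gene start is shown for Fbn1 and Efemp1 because these 2 genes passed in iPax7 cells. Both stretches come from RefSeq on build GRCm38.p6 and run 5′ to 3′ on the strand of the gene. They end where the gene begins in the RefSeq gene table. The start used for the promoter windows lies further inside the gene, so the last bases of each window are not shown. Fbn1 is chr2:125506486-125506688 on the minus strand and Efemp1 is chr11:28852955-28853153 on the plus strand. Capitals mark matches to GGGCGG, the letters of a GC box, and to TGANTCA, those of an AP-1 site.

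Fbn1: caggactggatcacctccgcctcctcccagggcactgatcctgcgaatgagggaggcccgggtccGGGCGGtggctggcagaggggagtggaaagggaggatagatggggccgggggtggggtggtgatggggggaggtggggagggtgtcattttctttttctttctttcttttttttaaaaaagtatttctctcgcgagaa
Efemp1: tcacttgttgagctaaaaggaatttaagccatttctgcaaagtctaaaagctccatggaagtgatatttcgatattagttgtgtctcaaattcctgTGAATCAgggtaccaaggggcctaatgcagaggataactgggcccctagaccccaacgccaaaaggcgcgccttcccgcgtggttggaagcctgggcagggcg

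Windows of 250 bases before a start were used for 6 of the 10 genes, 9 windows in all. Any window of a member on chromosome 18, where the Fbn2 probe lies, was left out. The 9 windows were searched on both strands for the letters of a TATA box (TATAAA), a GC box, an E-box (CAGCTG) and an AP-1 site. None of the 9 windows held TATAAA, which 12.4% of all 32851 promoter windows held. The letters GGGCGG, present in 32.7% of all windows, occurred in at least 1 window of each of the 6 genes. Mfap2, Fbln5 and Fbln1 each also had a window with 0 matches, so this count per gene is unlike the share per window. The GGGCGG match of Efemp1 begins 29 bases before the start used for the window, in the part not shown. The match to TGANTCA in the Efemp1 window begins 154 bases before the start, and 6.75% of all windows hold one. These are matches of letters and not measured binding sites.

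Across the 10 genes, 0 passed in iPax3 cells, where 0.432% of all genes did in either direction, and 2 passed in iPax7 cells, where 0.533% of all genes did. With both lines together 3 passed, against 1.04% of all genes. The mean was higher than in satellite cells for 9 of the 10 genes in each line and in both together, which held for 45.3% of all genes in iPax3 cells, 45.9% in iPax7 cells and 45.6% in both. In iPax3 cells, 7 of the 10 genes had every iPax3 array above every satellite array, which held for 8.6% of all genes. In iPax7 cells this was so for 6 of the 10, against 7.64% of all genes. With both lines together it was so for 5 of the 10, against 4.14% of all genes. The median difference of the 10 genes was 2.86 log2 units for iPax3, 3.11 for iPax7 and 2.74 for both together, where the medians of all genes were −0.19, −0.15 and −0.16. Both comparisons used the same 3 satellite arrays, so a low satellite value enters both. The 10 genes were chosen with earlier results of these data known, so these counts and medians only describe them.

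**Figure D4:**
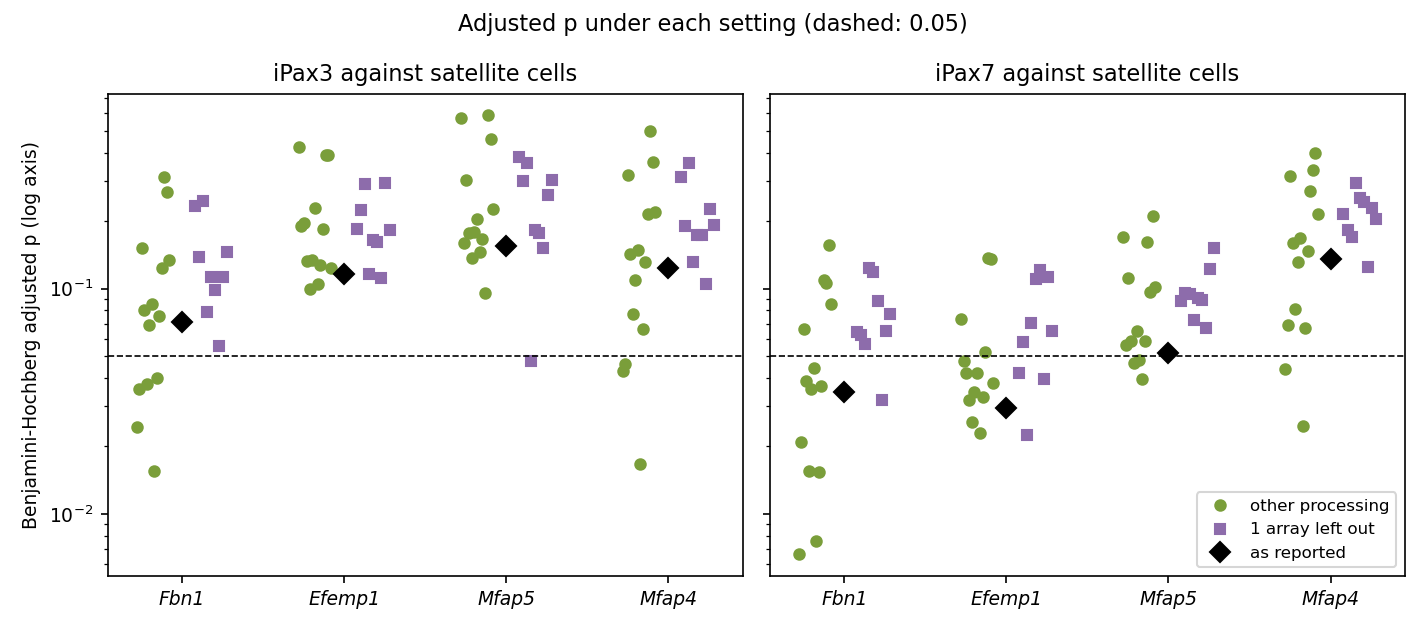
Adjusted p of Fbn1, Efemp1, Mfap5 and Mfap4 against satellite cells under each alternative setting and with each array left out, for iPax3 and iPax7 cells, on a log axis with a dashed line at 0.05. Circles are other processing, squares are fits with 1 array left out and diamonds are the reported values. The points of Fbn1 and Efemp1 in iPax7 cells lie on both sides of the line.

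Between the lines, none of the 10 genes and none of the 22705 genes passed (0% called, limma). At an unadjusted p under 0.05 there were 931 genes, none of them among the 10. The mean was higher in iPax7 cells for 5 of the 10 genes and for 53.3% of all genes. Mfap5 was the 1 member with every iPax7 array above every iPax3 array, which held for 4.46% of all genes, and its difference was 1.84 log2 units with an interval of −0.64 to 4.31. That difference was 0.52 without iPax7 replicate 1, and the nearest arrays of the lines read 0.23 and 0.2. Efemp1 was 2.22 ± 1.08 higher in iPax7 cells, with an interval of −0.22 to 4.66. The interval of Eln ran from −1.4 to 3.69 and that of Mfap4 from −2 to 1.78, so that differences of several-fold between the lines lie inside the intervals. In the fit with slide as a fixed block, where the comparison rests on iPax7 replicate 1 and the iPax3 arrays of its slide, Mfap5 was 4.48 higher in iPax7 cells (adjusted p = 0.126) and Mfap2 was 1.79 higher, where without the block it was 1.34 lower.

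The lysyl oxidases, which cross-link elastin and collagen, gave no call: 0 of 5 tested genes passed in either line. Lox was highest in iPax3 cells at 5.72 ± 1.51 log2 units (adjusted p = 0.171, limma), with Loxl2 lowest at 0.4. The Lox probe was well above background on 1 satellite array, and this difference ran from 2.51 to 7.72 over the alternatives. In iPax7 cells Loxl1, the member tied most closely to elastin, was highest at 4.7 ± 1.13 (adjusted p = 0.141) and Loxl4 lowest at −0.43. The median over the 5 was 1.34 in iPax3 cells and 0.06 in iPax7 cells.

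Among 21 other elastic fibre and microfibril proteins on the array, such as the emilins, the latent TGF-beta binding proteins and the ADAMTS-like proteins, 1 rose in each line and none fell. It was Adamtsl3, an ADAMTS-like protein, with 8.63 ± 0.69 in iPax3 cells (adjusted p = 0.00204, limma) and 8.9 ± 0.69 in iPax7 cells (adjusted p = 0.00199). Its probe was well above background on 1 satellite array. When only probes well above background on all 9 arrays were used, another probe stood for Adamtsl3, and it gave 1.86 in iPax3 cells (adjusted p = 0.546) and 1.6 in iPax7 cells (adjusted p = 0.643). The list as a whole lay near all genes, with medians of 0.07 and −0.26. Its lowest differences were −1.28 for Mfap3 in iPax3 cells and −2.61 for Thsd4 in iPax7 cells.

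Of 6 matrix proteins that bind microfibrils, Dcn rose in both lines. Dcn encodes decorin, a small proteoglycan that also stands in the list of fibroblast markers used here. It was 8.59 ± 0.75 higher in iPax3 cells (adjusted p = 0.00255, limma) and 8.83 ± 0.75 higher in iPax7 cells (adjusted p = 0.00199), and it passed in every alternative setting and with every array left out. Vcan, the proteoglycan versican, passed with both lines together (7.7 ± 1.28, adjusted p = 0.0288) and in 3 of 9 fits with an array left out, those without iPax3 replicate 2 and without satellite replicate 1 or 2. Its probe was well above background on 1 satellite array, the mean of its probes gave 4.14, and the call was lost with slide (adjusted p = 0.163), scan day (0.154) or replicate number (0.0738) as a block. Npnt, which encodes nephronectin, was the lowest and did not pass, at −2.7 in iPax3 cells and −1.17 in iPax7 cells.

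Of 8 elastin degrading enzymes tested, Mmp14, a membrane-bound matrix metalloproteinase, rose by 8.02 ± 1.12 in iPax3 cells (adjusted p = 0.0228, limma) and by 7.89 ± 1.12 in iPax7 cells (adjusted p = 0.021). Each was lost when any array of its own line or satellite replicate 2 or 3 was left out, and held in the other 4 of 9 such fits. Slide, scan day and a fit of only the groups compared also ended each call, with adjusted p-values of up to 0.106 for iPax3 and 0.082 for iPax7. The lowest were Ctss at −0.76 in iPax3 cells and Mmp7 at −1.01 in iPax7 cells, and Mmp12, macrophage elastase, was well above background on no array. Of 14 receptors and signalling inputs, none passed in a single line. Tgfbr2, a TGF-beta receptor, passed with both lines together (3.97 ± 0.73, adjusted p = 0.0436) and in 1 of 9 fits with an array left out, that without satellite replicate 1. It was lost in 6 of 14 other settings, with an adjusted p of up to 0.245, that with slide as a block. Itgb1 was highest in iPax3 cells at 4.12 and Tgfb2 in iPax7 cells at 5.31 ± 2.02 (adjusted p = 0.339), with Glb1 lowest at −1.37 and Itgb3 at −0.88. The value of Itgb1 rested on satellite replicate 3, which read −6.73 where the other 2 satellite arrays read 2.17 and 2.43. Tgfb2 was well above background on 2 iPax7 arrays and 1 satellite array, and its difference ran from 2.15 to 7.01 over the alternatives.

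The patterns most like those of 4 of the genes were sought by Pearson's correlation over the 9 arrays, among 18912 genes well above background on at least 6 of them. The arrays fall into 3 groups and share amplification and scaling, so the values only describe these arrays. The pattern nearest to Fbn1 was that of Gsn (r = 0.981), which encodes gelsolin and stands in the list of fibroblast markers, followed among named genes by Hsd3b7 (0.97), Angptl1 (0.967) and Fndc3b (0.966). Nearest to Efemp1 were Mrps7 (0.975), Rab21 (0.964), Ammecr1 (0.958) and Scara5 (0.947). Nearest to Mfap5 were Omd (0.971), Prss23 (0.963) and Kctd16 (0.961), after an entry without a gene symbol. Nearest to Eln were Rchy1 (0.98), Fgf10 (0.94), Meis2 (0.93), Arhgap28 (0.917) and Ctns (0.915).

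Markers of fibro-adipogenic progenitors and fibroblasts moved with the comparison. All 12 were well above background on some array of each group. All 12 had higher means in each line than in satellite cells, against 45.3% of all genes in iPax3 and 45.9% in iPax7 cells. Of them, 4 rose in iPax3 cells, 5 in iPax7 cells and 8 with both lines together. The shares of all genes passing in either direction were 0.432%, 0.533% and 1.04%. Dcn, Pdgfra, which encodes a growth factor receptor of these cells, and the collagen genes Col1a1 and Col1a2 rose in each line, Ly6a in iPax7 cells, and Lum, Col3a1 and Gsn as well with both lines together. Their summed level, in log2 units, was 8.88 to 9.85 on the iPax3 arrays, 9.38 to 10.26 on the iPax7 arrays and 5.17 to 6.48 on the satellite arrays. The summed level of the satellite cell markers ran the other way, at 5.48 to 5.82, 5.23 to 6.28 and 7.5 to 8.19. In sorted bulk cells, more cells of a type and more RNA per cell cannot be told apart, and the part of these markers in the differences of Fbn1, Efemp1 and Mfap5 was not tested.

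The summed levels of the smooth muscle and pericyte markers overlapped among the 3 groups, with values of 5.72 to 6.14 on iPax3 arrays, 5.86 to 6.93 on iPax7 arrays and 6 to 6.69 on satellite arrays. Of these 10 markers, 3 had higher and 7 lower means in each line than in satellite cells. Among all genes, 45.3% had higher means in iPax3 cells and 45.9% in iPax7 cells. Myh11, a smooth muscle myosin, fell by 2.95 with both lines together (adjusted p = 0.0482, limma), where 1.04% of all genes passed in either direction. Tenocyte markers stood at 4.2 to 4.7, 3.4 to 3.73 and 2.51 to 4.59. Tnmd, which defines that cell type, was well above background on 3 iPax3 arrays, 1 iPax7 array and no satellite array. Endothelial markers stood at 1.68 to 2.35, 2.79 to 5.8 and 2.97 to 3.87, with Cdh5 well above background on no iPax3 array. Leukocyte markers stood at 2.35 to 2.51, 1.75 to 4.22 and 2.58 to 3.71. Muscle fibre markers stood at 2.74 to 3.7, 2.88 to 5.07 and 3.86 to 5.07, and those of pluripotent cells at 2.16 to 2.73, 2.34 to 3.77 and 1.87 to 4.1. These lists overlapped between iPax7 and satellite cells. On the iPax3 arrays, the sums of the endothelial, leukocyte and muscle fibre markers lay below those of all satellite arrays, for leukocytes by a narrow margin. Of the iPax7 arrays, replicate 1 had the highest sum in every one of these marker lists, those of satellite cells included. It was also the highest iPax7 array for Eln, Fbn1, Fbn2, Mfap2, Mfap4, Mfap5 and Fbln2. For Efemp1 it was the lowest, as it was for Fbln5, whose probe was not well above background there.

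**Figure D5:**
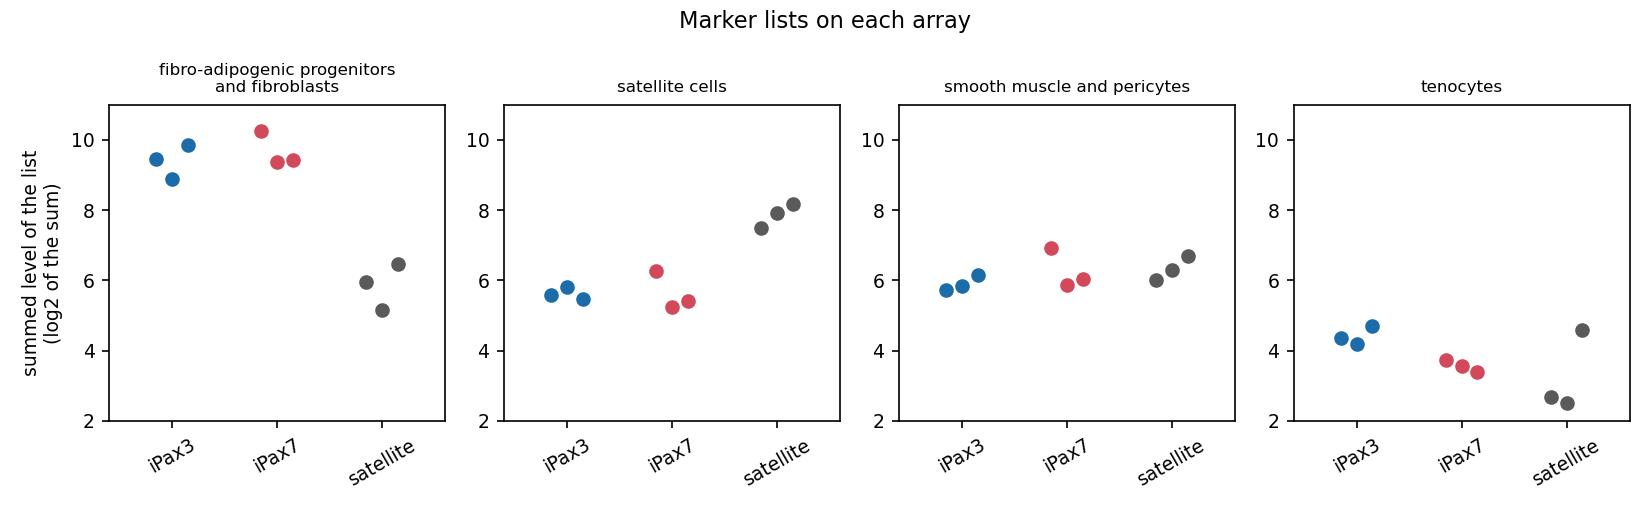
Summed level of the markers of fibroblasts, satellite cells, smooth muscle and tenocytes on the 9 arrays, as log2 of the sum of signals relative to the array's 75th percentile, with arrays as points. The fibroblast markers of all 6 re-isolated arrays lie at 8.88 or above and those of the satellite arrays at 6.48 or below, and the satellite cell markers lie in the opposite order.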

How the data were processed

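Sorted, amplified RNA was measured on 9 single-colour (Cy3) arrays, 3 per group, grouped by the sample titles. Per the file headers, Agilent Feature Extraction 10.5.1.1 wrote the intensity values after detrending and background subtraction, and set the deposited flag of spots well above background at 13 standard deviations of it. The deposited value table holds the authors' log2 values of 31918 spots. Limma is named in the submitters' processing notes. The columns have medians of 7.633 to 7.709 and correlate with the log2 mean signal at r of 0.9875 to 0.9993, which is an uncentred log2 scale. How they were adjusted and the spots chosen is not given in the sources used here.

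Here log2 of the processed signal minus the array's 75th percentile was used, without control spots and outlier spots. No spot was saturated. Spots of a probe were averaged. Probes well above background on at least 3 of 9 arrays were kept, 32967 of 41174, and 13 of the 14 member probes. The kept probe with the highest mean stood for its gene. Probes were named by accession (24375), current symbol (6301), older symbol (2426) or as in the file (8072), through the RefSeq gene table. All 10 members had a value in the test.

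Limma 3.58.1 in R 4.3.3 (lmFit, eBayes) gave a mean to each group in 1 fit over the 9 arrays, and p-values were Benjamini-Hochberg adjusted over 22705 genes and called at 0.05. Errors after ± are standard errors for differences and standard deviations for means. The number of arrays limits the precision, and the fit was tested on simulated data. The replicate numbers are not stated to pair the samples, so no block was used. Probe coordinates are those of build mm8 (file columns), for which no annotation was used here, so exons and UTRs are not given. All 10 members are named, and genes of the 5 related lists are named where they passed or had the highest or lowest difference of a list. Marker genes are named where they passed or were well above background on no array of a group, and Pax7 as the defining marker. The members and lists were chosen with earlier results of these data known.

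Alternatives covered background correction, scaling, the probe filter and choice, the deposited table, the variance prior, the groups in the fit, slide, scan day, the replicate block and each array left out. Normexp used an offset of 50, where the 75th percentile of the processed signal ran from 207 to 849 over the arrays. Slide as a fixed block among re-isolated arrays was added after seeing the data.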

Additional observations from a re-analysis of the deposited data

How the results depend on the processing

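Of 914 member results under the alternatives, 818 kept their sign and their side of the threshold. Another 52 lost and 21 gained the call, and 23 turned sign, none of them called. Only results called in the reported fit could lose the call, 2 in iPax7 cells and 3 with both lines. In iPax7 cells, Fbn1 lost it in 5 of 14 other settings and in 8 of 9 fits with an array left out. Efemp1 lost it there in 4 of 13 and 6 of 9. With both lines, the counts were 3 of 14 and 4 of 9 for Fbn1 and 3 of 13 and 5 of 9 for Efemp1. For Mfap5 they were 6 of 13 and 8 of 9. In iPax3 cells 0 members passed, against 2 with normexp, quantile normalization or the deposited table, 1 with probes above background on all 9 arrays or the variance trend, and 0 to 1 with an array left out. In iPax7 cells 2 passed, against 1 with median scaling, all-array probes or the replicate block, 3 with the mean of probes or the variance trend, 4 in the deposited table, 0 with only the groups compared, slide or scan day as a block, and 0 to 3 with an array left out. With both lines 3 passed, against 4 with quantile normalization, the deposited table or the trend, 2 with normexp, median scaling, all-array probes or single-probe fits, 0 with slide or scan day, 1 with the replicate block, and 0 to 3 with an array left out. Between the lines the count was 0 throughout. Over all genes, 98 calls in iPax3 cells became 14 with the slide block, 27 with scan day, 37 with the replicate block and 19 to 451 with an array left out, the 121 in iPax7 cells became 43, 36, 55 and 35 to 490, and the 236 with both became 46, 43, 115 and 75 to 692. The replicate numbers are not stated to pair the samples. Deviations of same-numbered arrays correlated at −0.129 to 0.063 and those of differently numbered arrays at −0.094 to 0.177. With 3 arrays per group, these values cannot settle whether the samples were paired.

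Fbn2 turned to 0.12 (normexp), 0.42 (quantile), 0.53 (deposited table), 0.14 (without iPax3 replicate 3) and 0.24 (without satellite replicate 3) in iPax3 cells, from −0.67 at the lowest with an array left out, and to 0.07 (quantile), 0.16 (deposited table) and 0.05 (without satellite replicate 3) with both lines, from −0.85. Between the lines, slide as a random block gave 0.23 for Mfap2 and 0.22 for Mfap4, and slide as a fixed block, added after seeing the data, 0.21 for Fbn2, 1.79 for Mfap2 and 0.55 for Mfap4. Median scaling gave 0.07 for Mfap4 and normexp 0.07 for Fbln5. Arrays left out gave −0.14 for Eln (iPax3 replicate 1), 0.41, 0.01 and 0.1 for Mfap4 (iPax3 replicate 3, iPax7 replicates 2 and 3), 0.02 for Fbln1 (iPax7 replicate 2), and 0.12, 0.23 and 0.09 for Fbln5 (iPax3 replicate 2, iPax7 replicates 1 and 2). Over all arrays left out, the range between the lines ran up to 2.15 for Eln and down to −0.6 for Mfap4, −1.64 for Fbln1 and −1.83 for Fbln5. The cause was not tested. Median scaling moved the median of all genes from −0.186 to −0.586 in iPax3 cells and from −0.153 to −0.38 in iPax7 cells. Efemp1, Mfap5 and Fbln5 gave no value over all-array probes, nor Fbln5 in the deposited table. Among the 13 related genes named without a call, the sign turned in 14 of 297 alternative values in iPax3 cells, 11 of 297 in iPax7 cells and 12 of 297 with both. The slide and strain limits given above hold for every comparison with satellite cells, and 3 arrays per group leave wide intervals.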
